A study of Rattus norvegicus with 8 samples.

Results

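The genes described here are 10 immediate-early transcription factors of the AP-1, EGR and MYC families: Fos, Fosb, Fosl1, Fosl2, Jun, Junb, Jund, Egr1, Atf3 and Myc. They were listed by gene symbol, with no threshold on a value, and each gene was read through its probe set with a single symbol and the highest mean over the arrays. Of the 10 symbols, 9 had such a probe set among the 14511 genes of the array with one. Fosb had none and was not analysed here. Total liver RNA came from female rats of the outbred Wistar strain and was hybridised to 8 Rat Gene ST arrays of Affymetrix, 2 for each of 4 groups. The groups were the remnant liver 8 h after partial hepatectomy (PH), in which about 2/3 of the liver is cut away, and the livers of healthy rats aged 2, 4 and 12 weeks. The sources used here do not state how old the operated rats were, and sham-operated livers were not analysed here, so effects of the operation, of age and of the time of day cannot be told apart when operated livers are set against livers of a given age. By the sample titles the 2 arrays of a group are biological replicates, by the design text duplicates, so each p-value reflects array-to-array spread that may be partly technical.

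Immediate-early genes are transcribed within minutes of a stimulus from signalling and transcription factors that are already in the cell, without new protein synthesis, and most of their mRNAs decay within hours. AP-1 is a dimer of a JUN protein (JUN, JUNB, JUND) with another JUN, a FOS protein (FOS, FOSB, FOSL1, FOSL2) or an ATF protein such as ATF3. EGR1 is a zinc finger factor switched on through the MAP kinase pathway and the serum response factor, and MYC pairs with MAX to drive genes of growth and ribosome synthesis. In rodent liver these genes are known for a wave of transcription in the first hours after partial hepatectomy, when quiescent hepatocytes enter the cell cycle. In bulk liver RNA, fewer cells of a type and less RNA per cell cannot be told apart.

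Promoters of some of the members are printed first. Regulatory letters outside the window given below were not searched. The set of RefSeq promoters used here, on the rat build GRCr8, held 6 of the 10 symbols (Fosb, Fosl1, Fosl2, Jund, Egr1 and Junb). Fos, Jun, Myc and Atf3 were not matched in that set, so their promoters were not searched. The 250 bases before the start site were searched on both strands for 8 motifs, which are given here with the share of 27457 promoters of the same length that held each. These were the AP-1 site TGANTCA (6.36%), the cyclic AMP response element TGACGTCA (1.7%), the E-box CACGTG bound by MYC with MAX (5.79%), the STAT site TTCNNNGAA (7.52%), the EGR site GCGNGGGCG (4.53%), TATAAA (13.1%), CCAAT (34.3%) and the CArG box bound by the serum response factor (1.5%). Matches stand in capitals, and none of them overlapped. Junb (chr19:40080876-40081125, plus strand) and Egr1 (chr18:26736828-26737077, plus strand) are the members whose levels differed between groups. Jund (chr16:18769772-18770021, minus strand) and Fosl2 (chr6:30039270-30039519, minus strand) are shown because their windows hold EGR sites.
Junb: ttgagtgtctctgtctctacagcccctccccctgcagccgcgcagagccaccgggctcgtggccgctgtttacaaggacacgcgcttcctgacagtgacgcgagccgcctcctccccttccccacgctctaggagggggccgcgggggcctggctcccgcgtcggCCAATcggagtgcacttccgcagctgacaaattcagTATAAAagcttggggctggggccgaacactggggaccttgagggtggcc
Egr1: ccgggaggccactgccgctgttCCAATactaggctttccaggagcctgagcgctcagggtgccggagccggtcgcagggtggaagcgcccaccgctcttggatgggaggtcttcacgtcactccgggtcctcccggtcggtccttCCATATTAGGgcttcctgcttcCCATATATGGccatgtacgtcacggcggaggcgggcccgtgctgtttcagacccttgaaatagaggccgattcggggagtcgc
Jund: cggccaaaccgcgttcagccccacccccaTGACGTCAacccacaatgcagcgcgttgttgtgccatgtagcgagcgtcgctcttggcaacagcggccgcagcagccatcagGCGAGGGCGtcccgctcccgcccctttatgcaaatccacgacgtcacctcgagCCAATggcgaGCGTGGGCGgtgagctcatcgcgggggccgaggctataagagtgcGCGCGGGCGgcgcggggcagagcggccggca
Fosl2: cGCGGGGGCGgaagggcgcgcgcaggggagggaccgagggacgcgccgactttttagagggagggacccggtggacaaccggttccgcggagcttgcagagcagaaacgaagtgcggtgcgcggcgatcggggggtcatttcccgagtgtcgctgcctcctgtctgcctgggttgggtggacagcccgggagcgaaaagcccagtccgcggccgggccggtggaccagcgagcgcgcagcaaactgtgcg

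The Egr1 window held 2 CArG boxes, 105 and 83 bases before the start, and a CCAAT box. The Junb window held TATAAA 49 bases and CCAAT 85 bases before the start, and no AP-1, STAT, EGR or CArG letters. The Jund window held TGACGTCA 221 bases before the start and 3 EGR sites, at 139, 76 and 31 bases, beside a CCAAT box. The Fosl2 window held 1 EGR site, 249 bases before the start. Of the windows searched but not printed, that of Fosb held only TATAAA, on the other strand, 180 bases before the start. The Fosl1 window held none of the motifs. A match is a description of the letters, and the arrays measured no binding.

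Values below are RMA levels on the log2 scale as the authors deposited them, so a difference of 1 is a doubling; levels of different probe sets do not measure relative abundance and are not set against each other. Each difference is given with its standard error from one limma model of all 8 arrays. A gene was called where its p, adjusted by Benjamini-Hochberg over all 14511 genes, was under 0.05. For the labelled tissue, the mean level of 8 hepatocyte markers lay between 12.99 and 13.24 on the 8 arrays. As a measure of background, 1266 odour, pheromone and taste receptor genes had a median of 4.64 and 4.16 in PH livers, 4.05 and 4.06 at 2 weeks, 4.05 and 3.99 at 4 weeks, and 4.72 and 3.91 at 12 weeks. The first arrays of the PH and 12-week groups therefore stood apart. Between the arrays of a group, 432 genes differed at least 2-fold in PH livers, 480 at 2 weeks, 621 at 4 weeks and 1838 at 12 weeks. Egr1, Junb, Jun, Jund, Myc and Fosl2 lay above the 95th percentile of the receptors on all 8 arrays, Atf3 on 7 of 8 and Fos on 6 of 8. Fosl1 lay below it on 8 of 8 arrays, so its values cannot be told from background.

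Junb and Egr1 were the 2 members whose levels differed over the 4 groups in limma's F-test (adjusted p = 0.0265 and 0.0113), where 1.79% of all genes were called. Junb was highest after hepatectomy, lowest at 12 weeks and between them in the young livers. Egr1 was high at 2 and 4 weeks and low both after hepatectomy and at 12 weeks. Myc had the same 2 groups at the top as Egr1, with differences that did not pass the test (adjusted p = 0.186). The range of the 4 group means was 2.25 for Egr1, larger than that of 98.4% of genes, 1.91 for Junb (97.5%) and 0.97 for Myc (87.9%), against a median of 0.44 over all genes. For Fos, the founding member of the family, the range was 0.19, larger than that of 9.91% of genes. Fos was not above the 95th percentile of the receptors on the first PH and first 12-week arrays. RMA compresses differences near background, so this small range need not mean an unchanged mRNA.

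**Figure D1:**
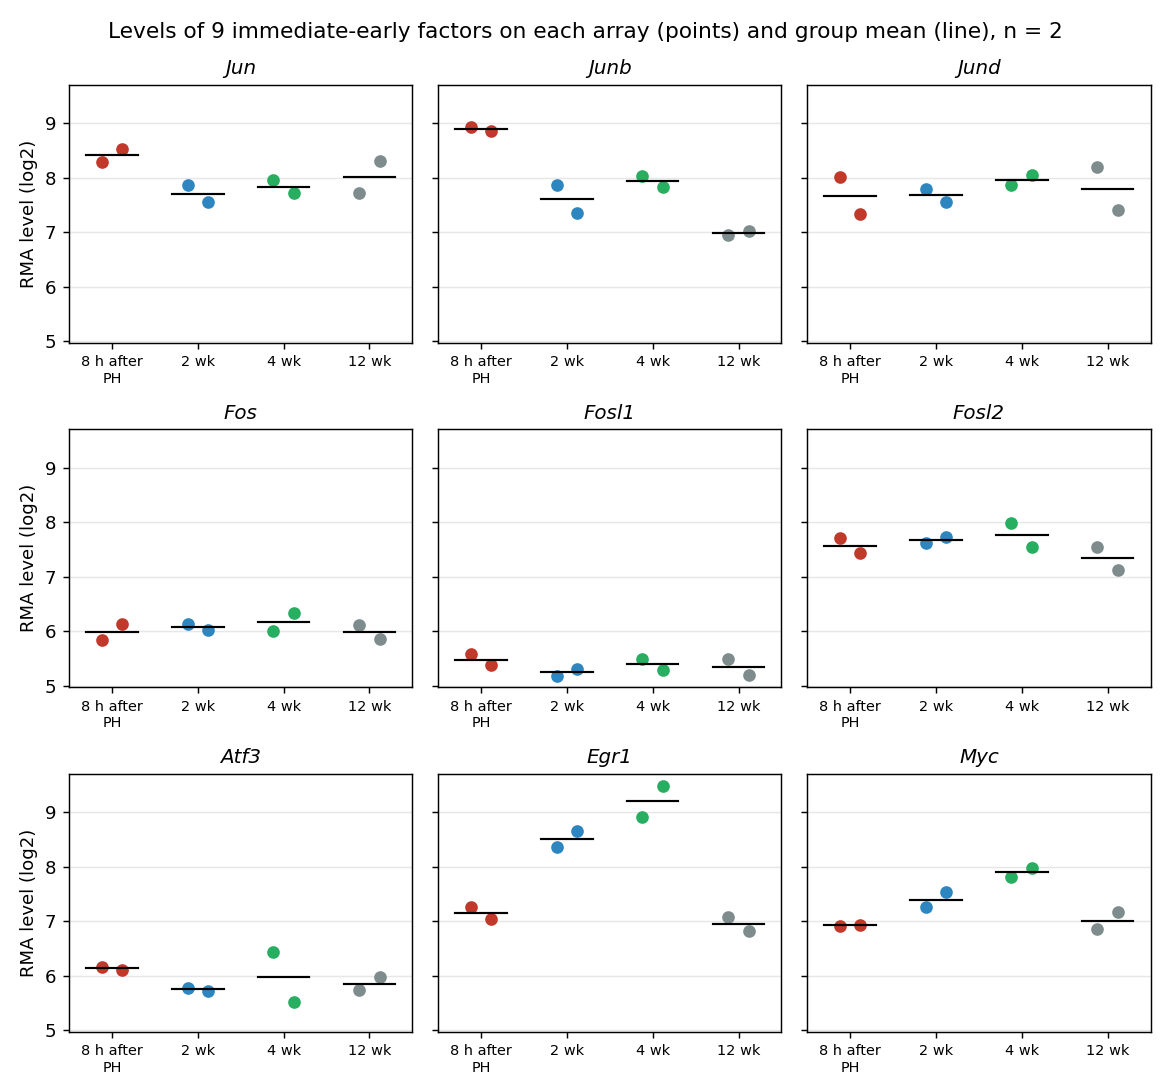
RMA level (log2, vertical axis) of the 9 measured factors on each array (points) in the remnant liver 8 h after PH and at 2, 4 and 12 weeks, with the group mean as a line (n = 2 arrays each). Junb is at 8.94 and 8.86 after PH, above all other arrays, and Egr1 is above 8.3 on the 2- and 4-week arrays and below 7.3 on the other 4.

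Among the JUN proteins, Junb, which can restrain JUN-driven proliferation as well as activate genes, had levels of 8.94 and 8.86 in PH livers, 7.88 and 7.35 at 2 weeks, 8.04 and 7.83 at 4 weeks, and 6.95 and 7.02 at 12 weeks. The PH arrays lay above all other arrays and the 12-week arrays below all others, while those of 2 and 4 weeks overlapped. Against 2 weeks Junb was higher after hepatectomy by 1.28 ± 0.24, or 2.43-fold (adjusted p = 0.0374), and this difference was called. Against 12 weeks its difference was larger, at 1.91 ± 0.24 or 3.76-fold, but the adjusted p of 0.0536 just missed the threshold in a comparison that called 0.0345% of all genes. Against 4 weeks the PH livers differed by 0.96 ± 0.24 (adjusted p = 0.198). The young livers stood above the 12-week livers by 0.63 ± 0.24 at 2 weeks (adjusted p = 0.361) and 0.95 ± 0.24 at 4 weeks (adjusted p = 0.501), neither of which was called. With any single array left out, the difference against 12 weeks stayed between 1.87 and 1.95 and was never called, and that against 2 weeks stayed between 1.02 and 1.54 and was called in the 2 of 8 that left out a 12-week array. The call against 12 weeks was made in 4 of 20 alternative analyses, among them median centring of the arrays (1.95, adjusted p = 0.0384) and the receptor level as a covariate. Without the first arrays of the PH and 12-week groups the differences were 1.84 against 12 weeks and 1.24 against 2 weeks, neither called (adjusted p = 0.391 and 0.219).

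Jun, the JUN protein that hepatocytes of mice need for normal regeneration, had levels of 8.29 and 8.53 in PH livers, 7.87 and 7.56 at 2 weeks, 7.95 and 7.71 at 4 weeks, and 7.73 and 8.31 at 12 weeks. The PH arrays lay above the 2- and 4-week arrays and overlapped those of 12 weeks. Against 2 weeks the difference was 0.70 ± 0.27 (adjusted p = 0.342), which was not called. Jund, a JUN protein that is expressed at a steady level in many resting cells, had levels of 8.01 and 7.34 in PH livers, 7.80 and 7.56 at 2 weeks, 7.87 and 8.06 at 4 weeks, and 8.19 and 7.41 at 12 weeks. Its 2 arrays differed most in the PH and 12-week groups, and in both the higher value came from the array with the raised receptor median. The part of that background in the Jund values was not tested.

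The FOS proteins, which pair with JUN proteins to bind DNA, showed no difference between groups with an unadjusted p under 0.05. Fos had levels of 5.84 and 6.14 in PH livers, 6.14 and 6.03 at 2 weeks, 6.001 and 6.339 at 4 weeks, and 6.11 and 5.86 at 12 weeks. Every group overlapped every other, at levels close to the receptor limit. Fosl2, or FRA2, had levels of 7.71 and 7.44 in PH livers, 7.63 and 7.73 at 2 weeks, 7.99 and 7.56 at 4 weeks, and 7.56 and 7.12 at 12 weeks. The 12-week arrays had the lowest mean and met those of 4 weeks at 7.56, and the second Fosl2 probe set, with 7.17 and 6.93 at 12 weeks, had its lowest mean in the same group. Fosl1, or FRA1, lay between 5.19 and 5.58 on the 8 arrays, below the receptor limit.

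Atf3, a stress-induced member of the ATF family that acts mostly as a repressor, had levels of 6.17 and 6.12 in PH livers, 5.78 and 5.73 at 2 weeks, 6.44 and 5.51 at 4 weeks, and 5.73 and 5.98 at 12 weeks. The PH arrays lay above those of 2 and 12 weeks, but the 4-week arrays spanned the whole range of the other 6, and no difference had an unadjusted p under 0.05.

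Egr1 had levels of 7.26 and 7.05 in PH livers, 8.37 and 8.66 at 2 weeks, 8.91 and 9.49 at 4 weeks, and 7.08 and 6.82 at 12 weeks. The 4 arrays of young liver lay above all others, and the PH and 12-week arrays overlapped. Egr1 was higher than at 12 weeks by 1.56 ± 0.27, or 2.96-fold, at 2 weeks (adjusted p = 0.0234) and by 2.25 ± 0.27, or 4.77-fold, at 4 weeks (adjusted p = 0.0258), and both differences were called. PH livers had less Egr1 than both young groups, with called differences of -2.05 ± 0.27 against 4 weeks (adjusted p = 0.0279) and -1.36 ± 0.27 against 2 weeks (adjusted p = 0.0421). These comparisons share arrays and are not independent of each other. In the order of the group means, the neighbours 2 and 4 weeks differed by -0.69 ± 0.27 (adjusted p = 0.596) and PH and 12 weeks overlapped, so the only step between neighbours that was called was that between 2 weeks and PH. All 4 differences kept their sign in each of the 20 alternative analyses. Relative to the median of each array, which differed by -0.15 between PH and 2-week livers, the difference of Egr1 between them was -1.21 and lost its call (adjusted p = 0.0926), whereas the other 3 kept theirs. With 1 array left out at a time, the call was kept in 3 of 8 analyses for 2 against 12 weeks and in 0 of 8 for 4 against 12 weeks, where the adjusted p lay between 0.0535 and 0.158 and the difference between 1.97 and 2.54. The 2 calls of PH livers against young livers were each kept in 2 of 8, those without a 12-week array. Without the first arrays of the PH and 12-week groups, which had the raised receptor medians, Egr1 differed by -2.15 in PH against 4 weeks, -1.46 in PH against 2 weeks, 1.70 in 2 against 12 weeks and 2.39 in 4 against 12 weeks, and none of these was called (adjusted p between 0.0938 and 0.165), with a lone array left in each of those groups and assumed to vary like the others.

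Myc had levels of 6.92 and 6.94 in PH livers, 7.26 and 7.53 at 2 weeks, 7.82 and 7.98 at 4 weeks, and 6.85 and 7.16 at 12 weeks. The 4 young arrays again lay above all others, the 4-week arrays above those of 2 weeks, and the PH arrays lay between the 12-week arrays. The largest differences of Myc were -0.97 ± 0.23 for PH against 4 weeks (adjusted p = 0.165) and 0.89 ± 0.23 for 4 against 12 weeks (adjusted p = 0.499), and neither was called in any of the 20 alternative analyses.

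**Figure D2:**
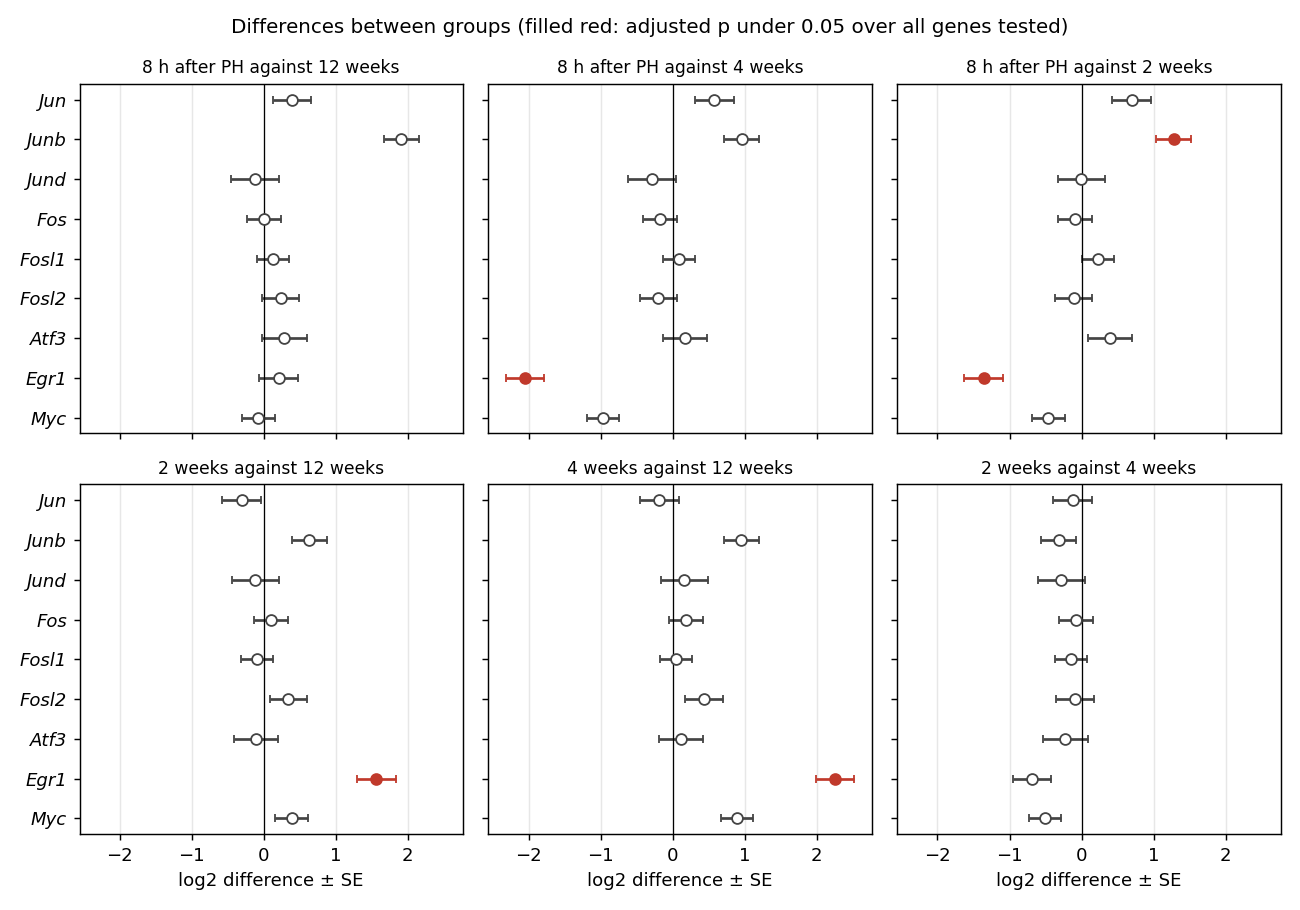
Log2 difference between groups (horizontal axis, points with standard error, n = 2 arrays each) for the 9 measured factors in the 6 comparisons, the group named first minus the second; filled red points passed an adjusted p of 0.05 over 14511 genes. Egr1 is called in 4 panels, Junb in the panel of PH against 2 weeks, and Junb against 12 weeks stands at 1.91 without a call.

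Counted by comparison, at most 2 of the 9 measured members were called. In PH against 12 weeks 0 of 9 members were called, and 1 (Junb) had an unadjusted p under 0.05, where 6.01% of all genes did. In PH against 4 weeks 1 of 9 was called (Egr1) against 0.31% of all genes, and in PH against 2 weeks 2 of 9 (Junb and Egr1) against 2.16%. Egr1 was the 1 member called in 2 against 12 weeks, where 2.23% of genes were, and in 4 against 12 weeks, where 0.11% were. At an unadjusted p under 0.05 these comparisons held 2 members (Egr1 and Junb) against 11.1% of genes and 3 (Egr1, Junb and Myc) against 4.47%. In 2 against 4 weeks 0 of 9 were called against 0.455% of genes, and 1 (Egr1) had an unadjusted p under 0.05 against 7.24%. Members whose groups did not overlap numbered 2, 4 and 6 for PH against 12, 4 and 2 weeks, where 29%, 44.1% and 46.8% of all genes did not overlap. They numbered 4, 4 and 3 for 2 against 12, 4 against 12 and 2 against 4 weeks, where 34.4%, 25.1% and 40.2% of genes did not overlap.

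The 9 members lay below 0 in 2 against 4 weeks without exception, with a median of -0.22 against -0.00 for all genes, but 7 of 9 did so without the first 4-week array. In 4 against 12 weeks 8 of 9 lay above 0 (median 0.19 against 0.00 for all genes). With 1 array left out the median lay between 0.19 and 0.58, highest without the second 4-week array. The second 4-week array by itself lay below the 12-week mean for Jun (7.71 against 8.02), Atf3 (5.51 against 5.86) and Fosl1 (5.30 against 5.35). In PH against 12 weeks 7 of 9 lay above 0, with a median of 0.20 against 0.00, and of 0.07 without the second 12-week array. Junb and Egr1 carry the called differences, whereas each of these medians is the small difference of the middle member. That member was Atf3 in 2 against 4 weeks, Fos in 4 against 12 weeks and Egr1 in PH against 12 weeks.

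The genes whose levels followed Egr1 and Junb most closely were sought among the 7255 genes in the upper part of the level range (at or above the median over genes), by Pearson's r over the 8 arrays, as a description. The arrays of a group share their condition, so r mostly reflects 4 group means. For Egr1 these were Pcolce, which enhances procollagen processing (r = 0.961), Vangl1, a planar polarity protein (0.956), and Hsd11b1, which regenerates active glucocorticoid (0.929). Pcolce stood at 8.13 and 7.79 in PH livers, 9.93 and 9.51 at 2 weeks, 10.27 and 10.11 at 4 weeks, and 7.87 and 7.69 at 12 weeks, with the young arrays above all others as for Egr1. For Junb they were Asns, the asparagine synthetase (0.964), Ckap4, a membrane protein of the endoplasmic reticulum (0.959), and Tnfrsf21, a death receptor (0.956). Asns stood at 8.58 and 8.46 in PH livers, 7.91 and 7.30 at 2 weeks, 7.46 and 7.46 at 4 weeks, and 6.63 and 6.63 at 12 weeks, the PH arrays at the top and the 12-week arrays at the bottom as for Junb.

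Few of the relatives of the members had a small p, and 0 were called. Of 14 listed AP-1 dimer partners and relatives, such as the ATF, CREB and MAF proteins, 12 were measured and 0 were called in any of the 6 comparisons by limma, with 0 to 2 at an unadjusted p under 0.05. Their medians lay between -0.08 and 0.03, and Mafg, a small MAF protein with the smallest p of PH against 12 weeks, differed there by -0.51 (adjusted p = 0.852). Of 11 EGR relatives and co-repressors 9 were measured and 0 were called, with 0 to 1 at an unadjusted p under 0.05. Among them Nab2, a co-repressor that EGR1 itself induces, had levels of 6.52 and 6.56 in PH livers, 7.69 and 7.89 at 2 weeks, 7.57 and 6.76 at 4 weeks, and 6.62 and 6.84 at 12 weeks. Nab2 differed by 1.06 ± 0.29 in 2 against 12 weeks (adjusted p = 0.146), with the 2-week arrays above all others. Of 13 genes of the MYC network, which compete for or modify MYC and MAX, 10 were measured and 0 were called, with 0 to 2 at an unadjusted p under 0.05 and medians from -0.16 in 2 against 12 weeks to 0.22 in PH against 2 weeks. The largest difference named among them was that of Mlxipl, or ChREBP, a glucose-responsive relative, at -1.88 in 2 against 12 weeks (adjusted p = 0.179).

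Of 37 other immediate-early genes 36 were measured. In PH against 12 weeks 28 of them lay above 0, with a median of 0.10 against 0.00 for all genes and of 0.19 without the first PH array, and 0 were called by limma, with 4 at an unadjusted p under 0.05. Socs3, the feedback inhibitor of interleukin-6 and STAT3 signalling, had levels of 8.95 and 8.38 in PH livers, 6.43 and 6.28 at 2 weeks, 6.49 and 7.05 at 4 weeks, and 6.39 and 6.33 at 12 weeks. The PH arrays lay above all others by more than 1 log2 unit. Socs3 was higher in PH livers by 1.89 against 4 weeks (adjusted p = 0.0441) and by 2.30 against 2 weeks (adjusted p = 0.00655), both called, while 2.31 against 12 weeks had the same adjusted p as Junb, 0.0536. Gadd45g, a growth arrest and stress gene, differed by 0.99 between PH and 12 weeks (adjusted p = 0.404). In 4 against 12 weeks 27 of 36 lay above 0 (median 0.17), and Plk2, a kinase of the polo family, differed by -1.01 (adjusted p = 0.454).

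Of 22 MAP kinases and their phosphatases, which carry and end the signal to these genes, 18 were measured. Dusp10, a phosphatase of the stress kinases JNK and p38, was the 1 gene called: it was higher at 2 than at 12 weeks by 1.36 (adjusted p = 0.0207), and in PH livers it was lower than at 2 weeks, with a difference of -1.32 (adjusted p = 0.0246). Its levels were 6.09 and 6.05 in PH livers, 7.56 and 7.21 at 2 weeks, 6.24 and 6.12 at 4 weeks, and 6.12 and 5.94 at 12 weeks, so the 2-week arrays stood alone.

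Of 15 genes described as AP-1 targets 14 were measured. Ccnd1, or cyclin D1, which drives the passage from G1, had levels of 7.35 and 7.54 in PH livers, 9.69 and 9.74 at 2 weeks, 8.01 and 7.95 at 4 weeks, and 7.12 and 7.92 at 12 weeks. Ccnd1 was higher at 2 than at 12 weeks by 2.19 (adjusted p = 0.00748) and lower in PH than in 2-week livers, with a difference of -2.27 (adjusted p = 0.0071). Mt2A, a metal-binding metallothionein, had levels of 12.85 and 13.80 in PH livers, 12.77 and 13.73 at 2 weeks, 12.36 and 13.44 at 4 weeks, and 10.79 and 11.05 at 12 weeks. Mt2A was called in 2 against 12 weeks at 2.33 (adjusted p = 0.0486), and its difference between PH and 12 weeks, 2.40, was not (adjusted p = 0.211). Timp1, an inhibitor of matrix proteases, differed by 1.83 between PH and 12 weeks (adjusted p = 0.429), with 1.14 when the first 12-week array was left out and 2.52 when the second was.

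All 16 genes described as MYC targets were measured. Their mean level was 9.68 and 9.86 in PH livers, 9.59 and 9.75 at 2 weeks, 9.13 and 9.34 at 4 weeks, and 8.77 and 9.52 at 12 weeks, whereas Myc itself was highest at 4 weeks. In PH against 12 weeks 14 of 16 lay above 0, with a median of 0.90 against 0.00 for all genes. Of the 16, 11 had an unadjusted p under 0.05, where 6.01% of all genes did, and 0 were called. Ldha is counted there at 1.21, but its 2 probe sets disagreed, and with their mean the difference was -1.69. The list was chosen with earlier results of these data known, so these counts are a description. The median rests in part on the 12-week arrays, with 0.41 when the first was left out and 1.30 when the second was. In PH against 4 weeks, where no 12-week array is compared, 12 of 16 lay above 0 and 4 below, with 0 called. The median there was 0.87 against -0.01 for all genes, and between 0.60 and 0.95 with 1 array left out. Srm, the spermidine synthase, had levels of 10.72 and 10.45 in PH livers, 9.42 and 9.75 at 2 weeks, 9.10 and 9.72 at 4 weeks, and 8.97 and 9.29 at 12 weeks, and its difference between PH and 12 weeks was 1.46 (adjusted p = 0.205). Ncl, the nucleolar protein nucleolin, differed by 0.92 (adjusted p = 0.334). Tfrc, the transferrin receptor, was the 1 gene of the list called in any comparison, and it was lower in PH than in 2-week livers, with a difference of -2.47 (adjusted p = 0.01). In 2 against 12 weeks their median was 0.48, with 0.09 when the first 12-week array was left out and 0.92 when the second was. In 4 against 12 weeks 9 of 16 lay above 0 and the median was 0.06, but it turned to -0.38 when the first 12-week array was left out and stood at 0.48 when the second was, so its sign rests on 1 array.

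**Figure D3:**
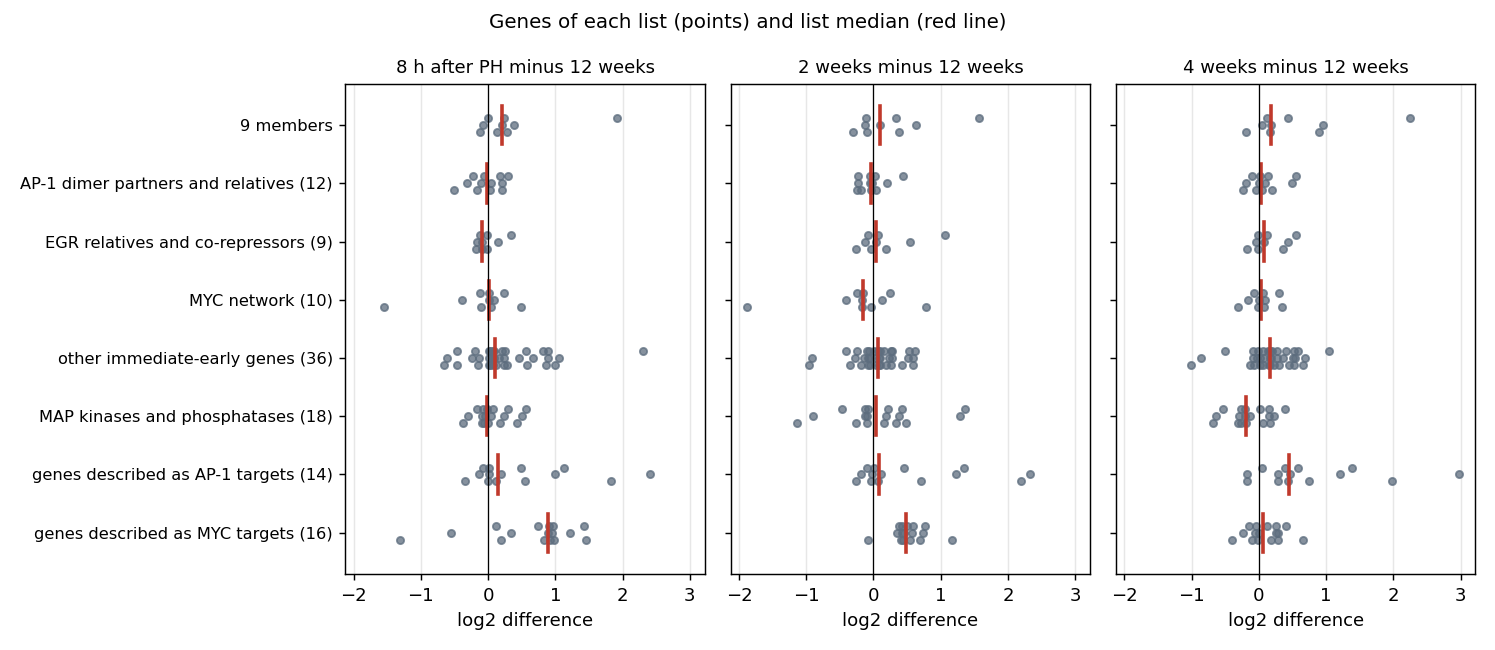
Log2 difference (horizontal axis) of each measured gene (points) and the list median (red line) for the 9 factors and 7 lists of related genes, in PH, 2 weeks and 4 weeks minus 12 weeks (n = 2 arrays each). The MYC target median stands at 0.90, 0.48 and 0.06 in the 3 panels (0.41 to 1.30, 0.09 to 0.92 and -0.38 to 0.48 with 1 array left out), and that of the MYC network at -0.16 in 2 against 12 weeks.

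Markers of other cell types were measured beside Egr1. All 9 stellate cell and fibroblast markers were above 0 in 2 against 12 weeks (median 1.56), and 2 of them were called, Des and Reln, where 2.23% of all genes were; with 1 array left out 0 to 3 were called. All 9 were also above 0 in 4 against 12 weeks (median 1.21), with 0 called by limma and 5 at an unadjusted p under 0.05, where 4.47% of all genes were. Without the first 4-week array that median was 0.31, while the Egr1 difference was 2.54. In PH livers 9 of 9 were below 0 against both young groups, with medians of -0.77 against 4 weeks (-0.25 without the first 4-week array, where 6 of 9 were below 0, and -1.54 without the second) and -1.22 against 2 weeks. Their mean level was 7.77 and 7.88 in PH livers, 9.21 and 8.93 at 2 weeks, 9.41 and 8.23 at 4 weeks, and 7.82 and 7.79 at 12 weeks. At 4 weeks Egr1 was higher on the second array and these markers on the first. The 7 erythroid markers averaged 5.35 and 5.27 in PH livers, 7.82 and 6.86 at 2 weeks, 6.35 and 6.77 at 4 weeks, and 5.67 and 5.54 at 12 weeks. In 2 against 12 weeks 7 of 7 were above 0, and Alas2, Ahsp and Slc4a1 were called. With 1 array left out 0 to 5 were called. In 4 against 12 weeks 6 erythroid markers were above 0 and 1 below (median 1.27), with 0 called. PH livers had 7 of 7 below 0 against 4 weeks (median -1.22), with Alas2 called, where 0.31% of all genes were. Against 2 weeks 7 of 7 were also below 0 (median -2.10), with the same 3 genes called, where 2.16% of all genes were. The 9 neutrophil markers averaged 5.52 and 5.64 in PH livers, 7.71 and 5.75 at 2 weeks, 5.47 and 5.82 at 4 weeks, and 5.23 and 5.05 at 12 weeks, with 1 of the 2-week arrays standing apart. In 2 against 12 weeks 9 of 9 were above 0 (median 1.58) and 0 were called by limma, with 8 at an unadjusted p under 0.05, where 11.1% of all genes were. That median was 0.44 without the first 2-week array, with 1 called, and 2.56 without the second, with 5 called. In PH against 4 weeks, where Egr1 was called, the neutrophil median was -0.01, with 4 markers above 0 and 5 below. The part of these cells in the Egr1 levels was not tested.

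For Junb, the PH arrays were not at the top of any of these 3 marker means. The macrophage mean was 9.18 and 9.46 in PH livers, the second of these the highest of the 8 arrays. It lay between these values on all other arrays but the second 12-week array, at 8.65. The means of lymphocyte markers lay between 5.15 and 6.31, highest on the second 12-week array. In PH against 12 weeks 8 of 8 were below 0 (median -0.69, and -0.15 without that array, where 5 of 8 were), and in 2 against 12 weeks 7 of 8 were (median -0.77, and -0.25 without it). The means of endothelial markers lay between 8.84 and 9.45, and those of cholangiocyte markers between 5.76 and 6.60. Of these 4 lists 0 genes were called by limma in any of the 6 comparisons, with 0 to 4 of a list at an unadjusted p under 0.05. The part of any of these cell types in the Junb levels was not tested.

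**Figure D4:**
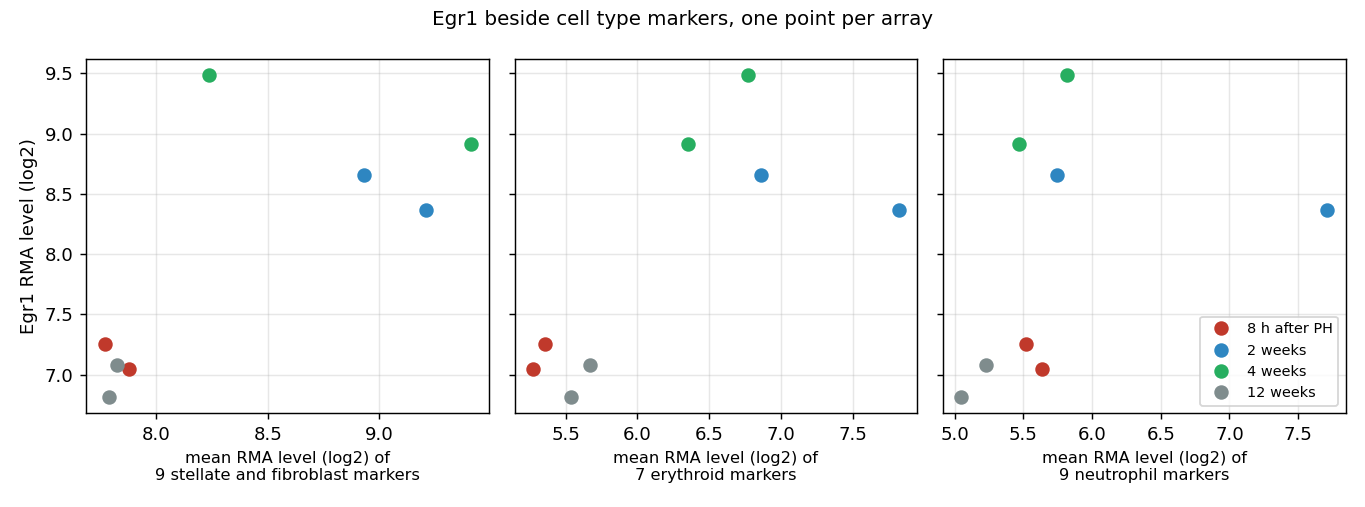
Egr1 RMA level (log2, vertical axis) against the mean RMA level (log2, horizontal axis) of stellate and fibroblast, erythroid and neutrophil markers, one point per array coloured by group. The 4 young arrays lie above the other 4 in Egr1, and in the first panel the second 4-week array has the highest Egr1, 9.49, with a stellate mean of 8.23.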

How the data were processed

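Total rat liver RNA was hybridised to 8 Affymetrix Rat Gene ST arrays. Per the submitters' processing notes, the authors made the log2 values in Affymetrix Expression Console by RMA; software versions and any filter are not stated there. RMA removes background, sets the arrays to one distribution and combines the probes of a probe set, and it compresses differences near the bottom of its scale. The deposited log2 values ran from 1.32 to 14.23 and array medians from 5.98 to 6.17. No depth applies, and 2 arrays a group limit the precision. No detection calls, scan dates or batches were used here.

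Of 29214 probe sets, 15316 had 1 gene symbol in the platform annotation, 317 several and 13581 none. Of the single symbols 15309 matched the GRCr8 gene table and 0 were updated. For 528 genes with several probe sets the one with the highest mean was used, leaving 14511 genes. One model of 4 group means with 6 contrasts and an F-test was fitted in limma 3.58.1 (R 4.3.3), with empirical Bayes variances (residual degrees of freedom 4, prior 4.27) and Benjamini-Hochberg adjustment. The script was tested on simulated data. A member's difference is printed where its unadjusted p was under 0.05. List genes are named where called or among the 3 smallest p of a comparison with 12 weeks, and genes that follow a member by the 3 highest r. The members and lists were chosen with earlier results of these data known. The lists were AP-1 partners, EGR relatives, the MYC network, other immediate-early genes, MAP kinases and phosphatases, AP-1 targets, MYC targets and markers of 8 cell types. Alternatives covered scaling, filters, probe set choice, spread, a receptor covariate, the replicate number and left-out arrays. Promoter sequences are RefSeq's on GRCr8, without bases after the start site; gene coordinates on the array's build were not used here.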

Additional observations from a re-analysis of the deposited data

How the results depend on the processing

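Of 1095 recomputed differences of members and list genes, 919 kept their direction and their side of the threshold, 161 kept the direction and lost the call, 14 gained one and 1 reversed. The reversed one was Ldha in PH against 12 weeks, at -1.69 with the mean of its probe sets, where the 2 probe sets disagree. Of the alternatives run, Socs3 was called in 11 of 20 in PH against 4 weeks and in 17 of 20 in PH against 2 weeks, Ccnd1 in 18 of 20 in PH against 2 weeks and in 19 of 20 in 2 against 12 weeks, Mt2A in 7 of 20 and Dusp10 in 12 of 19 in 2 against 12 weeks, and Tfrc in 17 of 20 in PH against 2 weeks. Counts are given in the order PH against 12, 4 and 2 weeks, 2 against 12, 4 against 12 and 2 against 4 weeks, where the numbers of genes called were 5, 45, 313, 323, 16 and 66. With 1 array left out these ranged from 1 to 11, 6 to 132, 72 to 421, 101 to 382, 5 to 24 and 26 to 110, and the members called from 0 to 0, 0 to 1, 0 to 2, 0 to 1, 0 to 0 and 0 to 0, with 1 to 2 over any group. The highest counts of genes in PH against 4 weeks, PH against 2 weeks and 2 against 4 weeks came without a 12-week array. Leaving out both first arrays of PH and 12 weeks, chosen after seeing the data, gave 9 genes in PH against 4 weeks, 127 in PH against 2 weeks and 180 in 2 against 12 weeks, and 0 members in any comparison or over any group. Array weights gave 2, 159, 587, 181, 10 and 116 genes, and the members of 2 against 12 and 4 against 12 weeks fell to 0. Using only the 4 arrays compared gave 2 genes in PH against 12 weeks, 109 in PH against 4, 140 in 2 against 12 and 7 in 4 against 12 weeks; members fell to 0 in both comparisons of young with 12-week livers and to 1 (Egr1) in PH against 2 weeks. Over all probe sets 3 genes were called in PH against 12 and 22 in PH against 4 weeks, with 0 members in PH against 4, PH against 2 and 4 against 12 weeks and 1 over any group. Median centring called 13 genes and 1 member (Junb) in PH against 12 weeks, 68 genes in PH against 4 weeks and 1 member (Junb) in PH against 2 weeks; quantile normalization also left 1 member (Junb) there, and the trended robust prior left 0. Centring takes out a shift of -0.15 in PH against 2 weeks and moves the share of calls that are higher in PH livers to 48.6%, with 172 higher and 182 lower, where 115 and 198 were called without it. The shifts were -0.11 in PH against 4 weeks and 0.11 in 2 against 12 weeks. The filter on receptor level gave 12 genes and 1 member (Junb) in PH against 12 weeks, and the receptor covariate 51 genes and 1 member there, 253 genes in PH against 4 and 139 in 2 against 4 weeks. The labels tie the replicate number to no animal, litter or day. Same-number deviations correlated at 0.0229 between 2 and 12 weeks and between 0.181 and 0.568 for the other 5 pairs of groups. The highest was that of PH with 12 weeks, the groups whose first arrays had the raised receptor medians. Whether the numbers pair the arrays was not tested, and they were not taken to do so. With the replicate block 41, 143, 498, 515, 30 and 129 genes were called, and 1 member (Junb) in PH against 12 weeks; Mt2A was then called in PH against 12 weeks (adjusted p = 0.0135) and 4 against 12 weeks (0.0202), Mlxipl in 2 against 12 weeks (0.00589) and Socs3 in PH against 12 weeks (0.0204). The cause of these changes was not tested. Another background correction and a scan block could not be run, since scanner files were not used here.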

Other observations

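Ldha, a MYC target that encodes a subunit of lactate dehydrogenase, had 2 probe sets that went opposite ways. The first stood at 12.71 and 13.06 in PH livers, 12.35 and 12.46 at 2 weeks, 11.52 and 11.63 at 4 weeks, and 11.46 and 11.88 at 12 weeks. The second stood at 7.22 and 7.88 in PH livers, 13.14 and 13.06 at 2 weeks, 11.84 and 12.39 at 4 weeks, and 11.78 and 12.48 at 12 weeks. Both PH arrays were thus the highest of the 8 on one probe set and the lowest on the other, by more than 3 log2 units on the second. What the second probe set reads was not tested.

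Marco and Vsig4, receptors of resident liver macrophages and 2 of the 9 macrophage markers, were low on the second 12-week array alone. The mean of the 9 markers, which includes them, stood at 9.32 and 8.65 on the 12-week arrays, a smaller fall than that of either gene. Vsig4 stood at 9.18 and 9.51 in PH livers, 7.92 and 8.66 at 2 weeks, 8.91 and 9.53 at 4 weeks, and 8.90 and 5.98 at 12 weeks. Marco stood at 8.20 and 8.11 in PH livers, 9.39 and 8.90 at 2 weeks, 9.31 and 9.16 at 4 weeks, and 7.94 and 5.81 at 12 weeks. The 12-week arrays are the baseline of 3 of the 6 comparisons.

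Ngp, a neutrophil granule gene, stood at 11.28 and 6.55 on the 2-week arrays, against 4.51 and 4.65 at 12 weeks. It differed by 4.33 between these groups without being called (adjusted p = 0.144).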
